A study of Mus musculus with 14 samples.

Results

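Cystic diseases of the liver and kidney are caused by mutations in a small set of genes, and 8 of them were followed here in cells sorted from injured mouse livers: Pkhd1, Pkd1, Pkd2, Bicc1, Glis2, Glis3, Prkcsh and Sec63. They were taken by their symbols from a table of 20377 symbols, in which each had a single transcript row. All came from adult C57BL/6 mice given 0.1% DDC, a porphyrinogenic compound that damages bile ducts and provokes a ductular reaction, for 5 to 8 weeks. The mice were chimeras in which mature hepatocytes carried a red fluorescent protein (mTomato). Ductal cells were sorted as positive for the surface antigen MIC1-1C3, negative for CD11b, CD26, CD31 and CD45, and low in side scatter. The mTomato+ ones, called donor cells by the labels, are the hepatocyte-derived ductal cells (5 libraries), and the mTomato-negative ones, called host cells, are the cholangiocyte-derived ductal cells (5 libraries). Hepatocytes of DDC-treated livers gave 4 libraries. No uninjured liver was analysed here, and the share of hepatocytes that carried the marker is not given in the labels. Whether libraries with different numbers came from different mice is not stated either, and p-values then measure only how these samples spread, part of which may be technical.

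The proteins fall into 3 groups. Fibrocystin (Pkhd1, mutated in recessive polycystic kidney disease) and the polycystins (Pkd1, a large receptor-like protein, and Pkd2, a cation channel that binds it, mutated in dominant polycystic kidney disease) are membrane proteins of the primary cilium, and in the liver the cilium is carried by cholangiocytes and not by hepatocytes. Bicc1, an RNA-binding protein, and the zinc finger factors Glis2 and Glis3 act in the same epithelia, where their loss gives cysts or nephronophthisis, and Glis3 also gives neonatal diabetes. Prkcsh, the non-catalytic subunit of glucosidase II, and Sec63, a part of the translocation machinery, serve the endoplasmic reticulum of nearly all cells, and their loss in cholangiocytes gives isolated polycystic liver disease.

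Values are RPKM, reads scaled to transcript length and library size, so that levels of different genes are given per length. Estimated depth was 23600000 to 33750000 reads per library, and the 8 genes received between 35.7 and 47430.3 estimated reads. Differences were tested with limma on log2(RPKM + 1) over the 12638 symbols that passed the filter, and genes with an adjusted p under 0.05 are called. All 8 genes passed. Over all tested genes the median log2 fold change was 0.67 for hepatocyte-derived ductal cells against hepatocytes, 0.76 for cholangiocyte-derived ductal cells against hepatocytes and -0.03 for hepatocyte-derived against cholangiocyte-derived ductal cells, and after rescaling by median ratios these were 0.03, 0.08 and 0.00. A fold change near 0.7 against hepatocytes is therefore that of the median gene. Against hepatocytes, all 7 hepatocyte markers were lower and all 7 cholangiocyte markers higher in each ductal group. In hepatocyte library 118, transcripts of other cells stood above those of the other 3 hepatocyte libraries: 7 macrophage markers summed to 826.96 RPKM against 23.04 to 32.77, 6 endothelial markers to 166.84 against 2.73 to 10.61, and 7 stellate cell and fibroblast markers to 136.83 against 1.61 to 4.09. The ductal libraries held 24.85 to 275.16 RPKM of macrophage and 1.15 to 91.88 of endothelial markers, with 1 macrophage marker at 0 in a library of each ductal group, and the part of other cells in the results was not tested. It also held fewer reads from long transcripts, with a median log2 difference of -0.46 from the other hepatocytes for transcripts over 5 kb and 0.37 for those under 2 kb. Pkhd1, Bicc1, Pkd1, Pkd2, Glis3 and Sec63 have transcripts over 5 kb, and their lowest hepatocyte value was in that library each time. Results against hepatocytes are therefore also given without it where a call or a count of genes changed.

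Promoter sequence was at hand for 6 of the 8 genes (RefSeq, build GRCm38, windows of 300 bases from 250 before to 50 after the start), and 4 are shown because their genes differ in how far ductal cells stood from hepatocytes. Each line gives the 150 bases before the start, with matches to 4 short motifs in capitals (GTTAAT, GC box GGGCGG, E-box CACGTG and TEAD core GGAATG, searched on both strands, so that a GC box can also read CCGCCC). The motifs do not overlap each other here, and the Prkcsh stretch holds none. Positions are chr1:20618058-20618207 (minus strand) for Pkhd1, chr5:104459307-104459456 (plus) for Pkd2, chr17:24549800-24549949 (plus) for Pkd1 and chr9:22002838-22002987 (plus) for Prkcsh.
Pkhd1: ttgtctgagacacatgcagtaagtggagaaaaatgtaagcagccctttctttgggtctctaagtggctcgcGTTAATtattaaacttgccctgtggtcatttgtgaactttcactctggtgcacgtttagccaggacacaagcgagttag
Pkd2: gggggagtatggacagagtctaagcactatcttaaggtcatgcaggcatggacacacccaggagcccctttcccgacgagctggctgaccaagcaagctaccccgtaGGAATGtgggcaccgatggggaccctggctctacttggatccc
Pkd1: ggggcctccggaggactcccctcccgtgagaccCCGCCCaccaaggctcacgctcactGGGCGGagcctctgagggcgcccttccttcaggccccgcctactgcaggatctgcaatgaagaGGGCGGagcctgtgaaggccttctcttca
Prkcsh: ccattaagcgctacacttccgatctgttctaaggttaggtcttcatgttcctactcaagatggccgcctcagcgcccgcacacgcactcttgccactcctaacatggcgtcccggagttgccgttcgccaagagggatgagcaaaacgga
The Pkhd1 window was poor in CpG, with 4 in 300 bases against a median of 7 over all 32851 windows, and held GTTAAT 79 bases before the start. Those letters were in 7.1% of all windows and in none of the other 5 windows of these genes. Pkd1 held 5 GC boxes and 18 CpG, Sec63 5 GC boxes and 23 CpG, and Glis3 3 GC boxes and 32 CpG, while 35.7% of all windows held a GC box. Pkd2 had 9 CpG and the TEAD core 43 bases before the start (14.7% of all windows), and Prkcsh had 29 CpG and an E-box 222 bases before the start, outside the stretch shown (7.15% of all windows). A match is a stretch of letters and was not tested as a binding site.

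Between hepatocytes and either ductal group, 6 of the 8 genes differed by more than 2-fold in mean RPKM, and 5 without hepatocyte library 118, where Pkd1 was 1.94-fold and 1.89-fold higher. In hepatocyte-derived ductal cells 7 of the 8 were called higher than in hepatocytes and 0 lower, where 66.2% of all tested genes were called higher and 14.8% lower. In cholangiocyte-derived ductal cells 7 were called higher and 1 (Sec63) lower, against 67.1% and 17.4% of all tested genes. The share called higher was thus near the background in each case, and the size of the differences was not: their median log2 fold change was 3.15 and 3.19, against 0.67 and 0.76 for all tested genes. After rescaling by median ratios, 5 were higher (Pkhd1, Pkd2, Bicc1, Glis2 and Glis3), 2 lower (Prkcsh and Sec63) and Pkd1 was not called, in each of these comparisons. Of all tested genes 37.9% and 41.1% were then higher and 36.0% and 37.5% lower. Without rescaling, the counts at an unadjusted p under 0.05 in limma were the same as those called. Both comparisons use the same 4 hepatocyte libraries. In bulk samples a higher level cannot be told apart from a larger share of cells that carry the transcript.

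**Figure D1:**
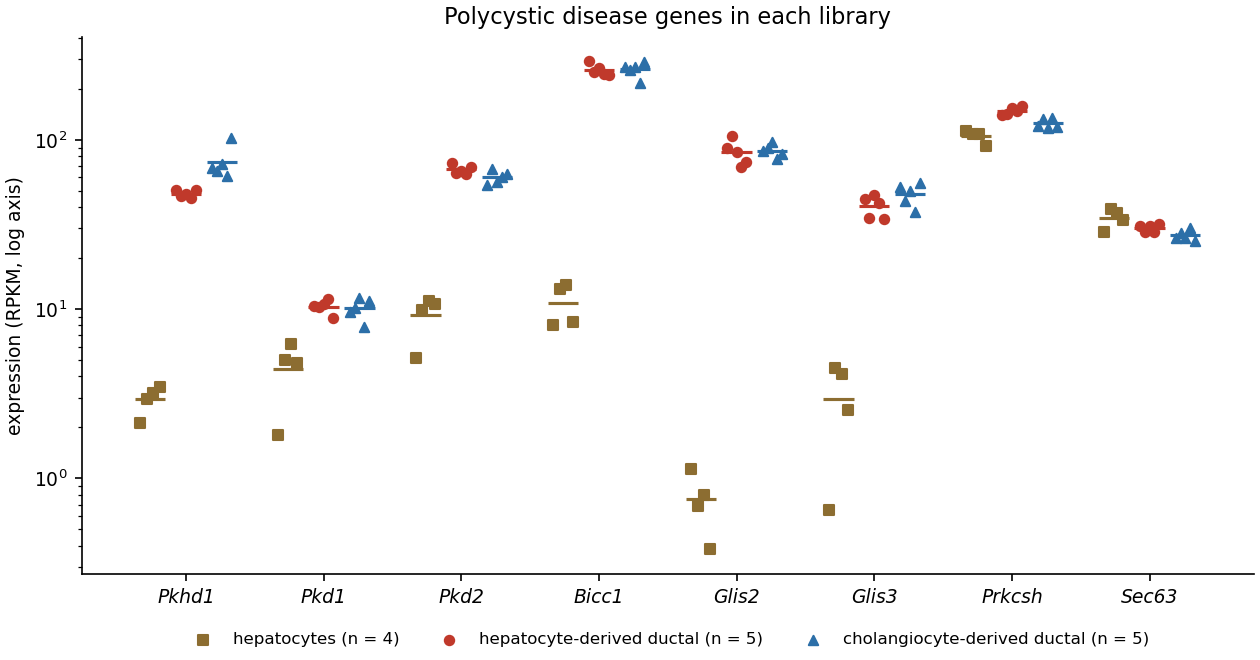
RPKM of the 8 genes in every library on a log axis, with a horizontal line at the group mean (n = 4 hepatocyte, 5 hepatocyte-derived ductal and 5 cholangiocyte-derived ductal libraries). Glis2 lies between 0.38 and 1.14 RPKM in hepatocytes and above 68 in every ductal library, while Prkcsh and Sec63 lie close together in all groups.

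Pkhd1, which encodes fibrocystin (NM_153179, mm9 chr1:20047860-20608138, minus strand), was measured in hepatocytes at 2.11 RPKM in library 118, 2.96 in 225, 3.21 in 248 and 3.46 in 611. Hepatocyte-derived ductal libraries held 50.37 (219), 46.29 (220), 47.95 (225), 45.09 (248) and 50.42 (611), a mean of 48.0 ± 2.39 (SD, n = 5). Cholangiocyte-derived ductal libraries held 68.46 (118), 65.64 (219), 72.05 (220), 61.53 (225) and 102.79 (611), a mean of 74.1 ± 16.5 (SD, n = 5). The 3 groups did not overlap, and the hepatocyte-derived libraries lay close together between hepatocytes and cholangiocyte-derived cells. The Pkhd1 promoter shown above is the one with GTTAAT. Against hepatocytes the ratio of means was 16.4 in hepatocyte-derived cells (log2 fold change 3.65 ± 0.14 SE, adjusted p = 2.20e-11) and 25.2 in cholangiocyte-derived cells (4.24 ± 0.14, adjusted p = 2.53e-12).

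Pkd1 encodes polycystin-1 (NM_013630, mm9 chr17:24686895-24733459, plus strand) and was the lowest of the 8 in ductal cells. In hepatocytes it read 1.8 RPKM in library 118 and 4.98, 6.23 and 4.78 in libraries 225, 248 and 611. Hepatocyte-derived ductal libraries ranged from 8.85 to 11.43 (10.3 ± 0.938, n = 5) and cholangiocyte-derived ones from 7.89 to 11.64 (10.1 ± 1.48, n = 5). Every ductal library was above every hepatocyte library. The log2 fold change against hepatocytes was 1.14 ± 0.21 (adjusted p = 1.82e-04) in hepatocyte-derived and 1.10 ± 0.21 (adjusted p = 2.24e-04) in cholangiocyte-derived cells, and 0.84 and 0.81 without hepatocyte library 118. Neither call held after rescaling by median ratios (0.47, adjusted p = 0.0790, and 0.40, adjusted p = 0.118) or quantile normalization (0.24, adjusted p = 0.301, and 0.11, adjusted p = 0.614). Pkd1 overlaps Tsc2 on the other strand over 578 bases, and since the library kit does not mark the strand, reads there cannot be told apart.

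Pkd2 encodes polycystin-2 (NM_008861, mm9 chr5:104888476-104934838, plus strand). Its level in hepatocytes was 5.14 RPKM in library 118, 9.89 in 225, 11.13 in 248 and 10.7 in 611. The 5 hepatocyte-derived ductal libraries ran from 62.73 to 72.7 (66.8 ± 4.15) and the 5 cholangiocyte-derived ones from 54.35 to 66.88 (60.3 ± 5.04). Every ductal value was far above every hepatocyte value. It rose in both ductal groups, 7.25-fold (2.78 ± 0.16 in log2) in hepatocyte-derived cells (adjusted p = 1.29e-09) and 6.54-fold (2.63 ± 0.16) in cholangiocyte-derived cells (adjusted p = 1.20e-09).

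The polycystins thus stood in another proportion in ductal cells than in hepatocytes. Within a library Pkd2 was 1.77 to 2.76 times Pkd1 in hepatocytes (2.18 ± 0.426, n = 4), 5.45 to 7.78 times in hepatocyte-derived ductal cells (6.47 ± 0.898, n = 5) and 4.81 to 7.61 times in cholangiocyte-derived ductal cells (6.03 ± 1.07, n = 5). A ratio within a library does not move when the library is rescaled by a common factor. The log2 ratio of Pkd1 to Pkd2 was lower than in hepatocytes by -1.58 in hepatocyte-derived cells and by -1.47 in cholangiocyte-derived cells, with no overlap (exact two-sided permutation test, p = 0.00794, the smallest it can give, and 0.0238 adjusted over 9 ratio tests). Between the ductal groups the ratio differed by -0.11 (exact permutation test, adjusted p = 0.612). A paired test of these ratios cannot go below 0.25 with the 3 pairs whose numbers the labels give, or 0.125 between the ductal groups with the libraries numbered 220 as a pair.

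**Figure D2:**
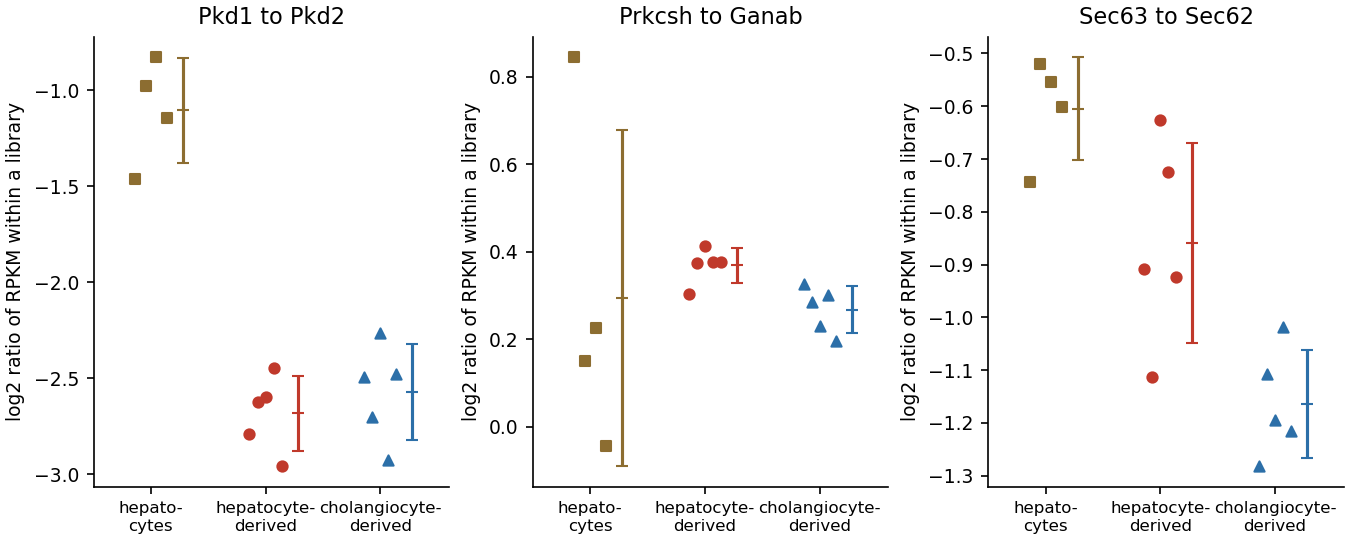
Log2 ratio of RPKM within each library for Pkd1 to Pkd2, Prkcsh to Ganab and Sec63 to Sec62, with the mean and SD of each group to the right of its points (n = 4, 5 and 5). The Pkd1 to Pkd2 ratio lies above -1.5 in all hepatocyte libraries and below -2.2 in all ductal libraries, and a single hepatocyte library (118) stands at 0.85 for Prkcsh to Ganab.

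Bicc1 was the most abundant of the 8 in ductal cells (NM_031397, mm9 chr10:70387848-70622382, minus strand). Hepatocytes had 8.04 RPKM in library 118, 13.07 in 225, 13.82 in 248 and 8.38 in 611, a mean of 10.8 ± 3.04. It reached 291.52, 253.19, 264.61, 243.5 and 241.91 in hepatocyte-derived libraries 219, 220, 225, 248 and 611, and 268.97, 257.51, 271.04, 217.32 and 289.66 in cholangiocyte-derived libraries 118, 219, 220, 225 and 611. The values of the 2 ductal groups lay across the same range, and their means of 258.9 ± 20.3 and 260.9 ± 27.0 differed by less than either SD. Against hepatocytes the log2 fold change was 4.49 ± 0.14 in hepatocyte-derived cells (adjusted p = 6.56e-12), the 74th highest of all tested genes, and 4.50 ± 0.14 in cholangiocyte-derived cells (adjusted p = 2.53e-12).

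Glis2, a Gli-similar zinc finger factor whose loss gives nephronophthisis (NM_031184, mm9 chr16:4594713-4615957, plus strand), showed the largest difference of the 8. Hepatocyte libraries 118, 225, 248 and 611 held 1.14, 0.69, 0.8 and 0.38 RPKM, which is 108.7, 70.4, 83.1 and 35.7 estimated reads. Hepatocyte-derived ductal libraries held 68.67 to 104.69 (84.4 ± 14.1, n = 5) and cholangiocyte-derived ones 76.94 to 96.79 (86.0 ± 7.48, n = 5). Every ductal library was far above the hepatocytes. Means were 112.1-fold and 114.3-fold those of hepatocytes, or 135.3-fold and 138.0-fold without hepatocyte library 118, with log2 fold changes of 5.61 ± 0.13 (adjusted p = 1.19e-12) and 5.65 ± 0.13 (adjusted p = 3.68e-13), ranks 14 and 50 from the top among all tested genes. The log2 values understate the ratio because 1 is added to a low hepatocyte level.

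Glis3, its relative that also acts in the pancreas (NM_175459, mm9 chr19:28336938-28754567, minus strand), was spread widely in hepatocytes, at 0.65 RPKM in library 118 against 4.48, 4.14 and 2.54 in 225, 248 and 611. It stood at 33.84 to 46.9 in hepatocyte-derived ductal libraries (40.4 ± 5.97) and at 37.71 to 55.22 in cholangiocyte-derived ones (47.8 ± 7.16). No ductal value came near the hepatocyte range. The log2 fold change was 3.52 ± 0.28 in hepatocyte-derived cells (adjusted p = 2.57e-08) and 3.76 ± 0.28 in cholangiocyte-derived cells (adjusted p = 8.66e-09), or 3.15 and 3.38 without hepatocyte library 118.

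**Figure D3:**
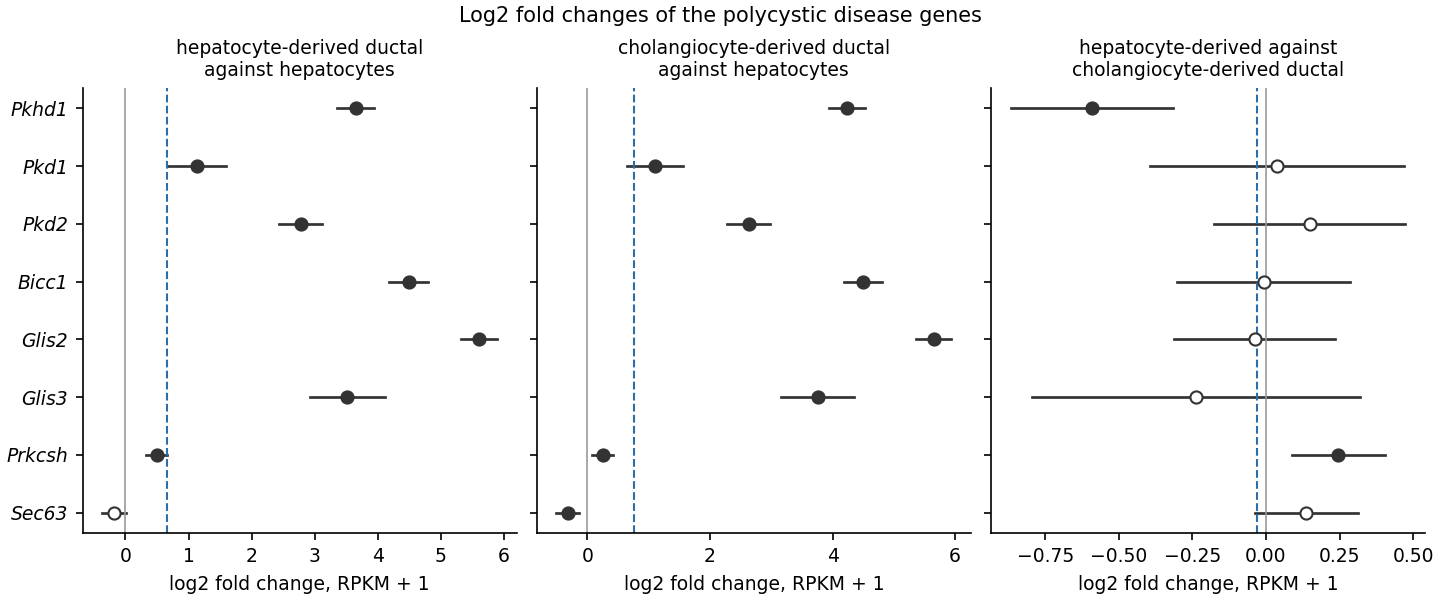
Log2 fold changes (RPKM + 1) of the 8 genes with 95% intervals in the 3 comparisons, filled where the adjusted p was under 0.05, with a dashed line at the median of all 12638 tested genes. Pkhd1, Pkd2, Bicc1, Glis2 and Glis3 lie far to the right of the median gene against hepatocytes, Prkcsh and Sec63 to its left, and Prkcsh is below 0 after rescaling by median ratios.

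The pair of endoplasmic reticulum genes behaved otherwise. Prkcsh (NM_008925, mm9 chr9:21807479-21818666, plus strand) held 112.21, 108.32, 108.88 and 92.25 RPKM in hepatocyte libraries 118, 225, 248 and 611. Hepatocyte-derived ductal libraries held 139.99, 142.84, 153.48, 148.59 and 158.46 (219, 220, 225, 248 and 611), and cholangiocyte-derived ones 121.08, 133.1, 118.12, 135.4 and 118.64 (118, 219, 220, 225 and 611). The 3 groups did not overlap, with hepatocytes lowest and hepatocyte-derived cells highest. It was called higher than in hepatocytes by 0.49 ± 0.08 (adjusted p = 3.48e-05) and by 0.25 ± 0.08 (adjusted p = 0.00832), below the median gene, and after rescaling by median ratios it was called lower, by -0.29 (adjusted p = 0.00134) and -0.57 (adjusted p = 2.57e-06), while quantile normalization kept it higher (0.74 and 0.51). Its direction against hepatocytes therefore depends on how the libraries are scaled.

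Ganab, the catalytic subunit of the same glucosidase, gives a ratio that does not move with a common factor per library. The ratio was not computed after quantile normalization. Prkcsh to Ganab differed from hepatocytes by 0.08 in log2 in hepatocyte-derived cells (exact permutation test, adjusted p = 0.795) and by -0.03 in cholangiocyte-derived cells (adjusted p = 0.944). These values rested on hepatocyte library 118, in which Ganab read 62.42 RPKM against 93.13 to 97.59 in the other 3. Without it the differences were 0.26 (exact permutation test, adjusted p = 0.0321) and 0.16 (adjusted p = 0.0402). The ratio was higher in hepatocyte-derived than in cholangiocyte-derived ductal cells by 0.10 (exact permutation test, adjusted p = 0.0357), with overlap.

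Sec63 (NM_153055, mm9 chr10:42481302-42552320, plus strand) was the only 1 of the 8 whose mean was highest in hepatocytes. Hepatocytes held 28.68, 38.99, 36.84 and 33.6 RPKM in libraries 118, 225, 248 and 611. Hepatocyte-derived ductal libraries ran from 28.43 to 31.64 (30.2 ± 1.52) and cholangiocyte-derived ones from 25.39 to 30.3 (27.4 ± 1.95). All groups overlapped, the hepatocytes with the others only through library 118. It fell by 0.32 ± 0.09 on the log2 scale in cholangiocyte-derived cells (adjusted p = 0.00356), and the value in hepatocyte-derived cells was -0.18 ± 0.09 (95% interval -0.37 to 0.01, adjusted p = 0.0699). Without library 118 the latter was -0.26 and called (adjusted p = 0.00377), and it was also called after rescaling by median ratios (-0.95), after quantile normalization (-0.51) and with the block that takes 220 as a pair (-0.21, adjusted p = 0.0381).

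Sec62, its partner in the translocon, stood at 52.3 RPKM in hepatocytes, 55.1 in hepatocyte-derived and 61.4 in cholangiocyte-derived ductal cells. In hepatocytes Sec62 was 1.43 to 1.67 times Sec63, in hepatocyte-derived cells 1.54 to 2.16 times and in cholangiocyte-derived cells 2.03 to 2.43 times. The log2 ratio of Sec63 to Sec62 was lower than in hepatocytes by -0.56 in cholangiocyte-derived cells, without overlap (exact permutation test, adjusted p = 0.0238), and by -0.25 in hepatocyte-derived cells (adjusted p = 0.0714, or -0.30 and 0.0402 without hepatocyte library 118). Between the ductal groups it was higher by 0.30 in hepatocyte-derived cells (exact permutation test, adjusted p = 0.0429), with overlap.

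Hepatocyte-derived and cholangiocyte-derived ductal cells were then compared directly, which asks how near the converted cells came to native ductal cells. Of the 8 genes, 1 was called higher (Prkcsh) and 1 lower (Pkhd1), where 15.1% of all tested genes were called higher and 21% lower. Pkhd1 was 1.54-fold lower in hepatocyte-derived cells, by -0.59 ± 0.13 in log2 (adjusted p = 0.00212) and no overlap. Library 611 of the cholangiocyte-derived cells stood apart at 102.79 RPKM, and without it the difference was -0.47 (adjusted p = 0.00209). With the library number as a block it was -0.64 (adjusted p = 0.00806). Prkcsh was 1.19-fold higher, by 0.25 ± 0.07 in log2 (adjusted p = 0.0162), and higher in each of 4 same-numbered pairs, 219, 220, 225 and 611. The number 220 stands in the column names and not in the labels, and the block fit planned here left those libraries out. Each ductal group also has a title whose number no column carries, and whether these are the same samples is not stated. The call was lost in that fit (0.24, adjusted p = 0.116), without both libraries 220 and no block (0.24, adjusted p = 0.0593), and without the 3 libraries richest in transcripts of other cells, hepatocyte library 118 and cholangiocyte-derived libraries 118 and 220 (0.20, adjusted p = 0.0725). With 220 taken as a pair it held, over all groups (0.25, adjusted p = 0.0392) and over the ductal pairs alone (0.23, adjusted p = 0.0473).

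For the other 6 genes the difference was not called, with 95% intervals in log2 of -0.30 to 0.29 for Bicc1, -0.31 to 0.23 for Glis2, -0.39 to 0.47 for Pkd1, -0.18 to 0.47 for Pkd2, -0.79 to 0.32 for Glis3 and -0.04 to 0.31 for Sec63. These intervals do not show that the levels were equal, and they take no account of pairs. Within the 4 same-numbered pairs Pkd2 was higher in hepatocyte-derived cells by 0.10 to 0.18 and Sec63 by 0.035 to 0.31 in log2, in 4 of 4 pairs each. Over these pairs alone the difference was 0.14 for Pkd2 (adjusted p = 0.111) and 0.15 for Sec63 (adjusted p = 0.135). Bicc1, Pkd1 and Glis3 were higher in 2 of 4 pairs and Glis2 in 3, and Pkhd1 was lower in 4 of 4. As a percentage of the cholangiocyte-derived mean, the mean of the hepatocyte-derived libraries was 64.8% for Pkhd1, 84.5% for Glis3, 98.1% for Glis2, 99.3% for Bicc1, 102.4% for Pkd1 and 110.9% for Pkd2. Of the 7 cholangiocyte markers in the same libraries, 4 were called lower and 3 were not called. The lower ones were at 6.47% for the keratin Krt19, 11.8% for Krt7, 15.6% for the adhesion molecule Epcam and 23.1% for the chloride channel Cftr. Among those not called, Sox9 had a mean of 92.4 RPKM in hepatocyte-derived and 102.6 in cholangiocyte-derived cells, and Spp1 17559.8 and 18618.3. Whether the 8 genes differ from such markers as a set was not tested. Transcripts of stellate cells and fibroblasts also moved with this contrast: 7 markers summed to 7.97 to 24.98 RPKM in hepatocyte-derived and 30.68 to 446.6 in cholangiocyte-derived libraries, none of them at 0 in any ductal library, and their part in the results was not tested. In cholangiocyte-derived libraries 225, 219, 118 and 220 these sums were 30.68, 73.6, 386.2 and 446.6 RPKM. Pkhd1 rose in the same order, at 61.53, 65.64, 68.46 and 72.05. Library 611 left this order, with a sum of 46.61 and Pkhd1 at 102.79, and a link between the 2 was not tested.

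**Figure D4:**
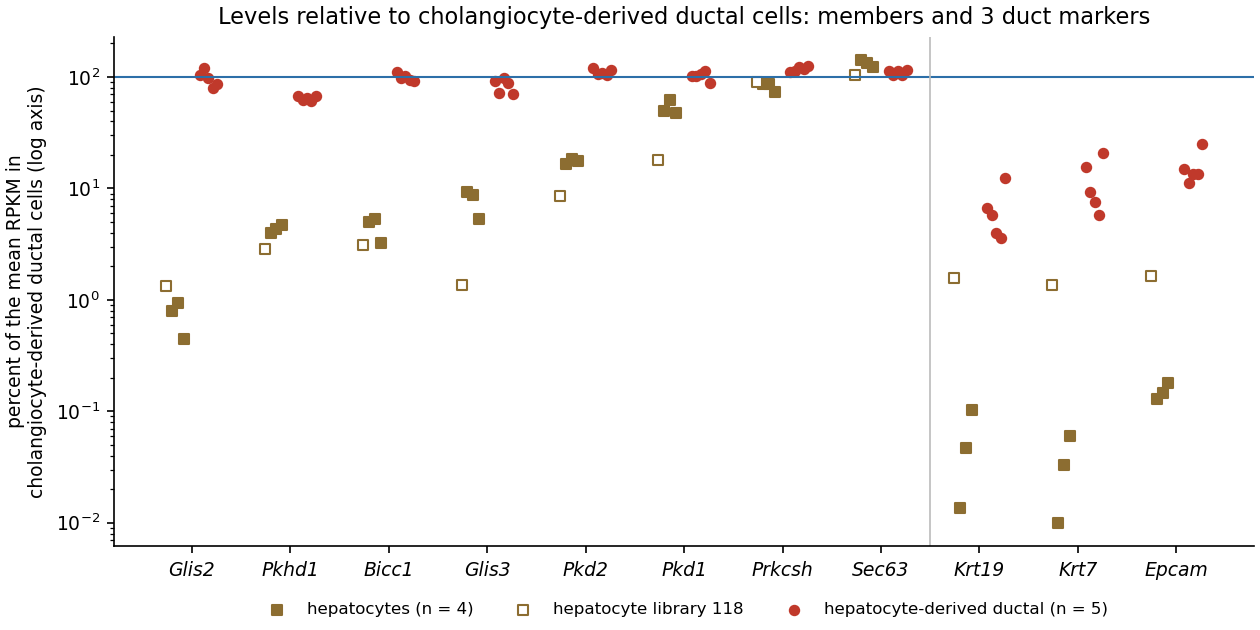
Level of each gene in hepatocyte and hepatocyte-derived ductal libraries as a percentage of the mean of the 5 cholangiocyte-derived libraries, on a log axis, for the 8 genes and, right of the grey line, 3 duct markers. Hepatocyte-derived libraries lie between 60.9% and 126.5% for the 8 genes and between 3.56% and 25.0% for these 3 markers. Hepatocyte library 118 (open squares) stands above the other hepatocytes for these markers. Of the 7 cholangiocyte markers, 3 others that are not drawn were not called between the ductal groups.

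Relative to cholangiocyte-derived cells, hepatocyte libraries held some of these transcripts well above the level of the duct marker Krt19. Other duct markers were not as low as Krt19. Sox9 had a mean of 7.89 RPKM in hepatocytes against 102.6 in cholangiocyte-derived cells, and Spp1 938.3 against 18618.3. Without library 118, hepatocytes held Bicc1 at 3.21% to 5.30% of the cholangiocyte-derived mean and Pkhd1 at 3.99% to 4.67%, and Krt19 at 0.0137% to 0.102%. In library 118 Krt19 was at 1.57%, and Bicc1 (3.08%) and Pkhd1 (2.85%) were lower than in the other 3. Pkd1, Pkd2, Glis3 and Sec63 also had their lowest hepatocyte value in library 118. Glis2 went the other way, at 1.33% in library 118 against 0.442% to 0.930% in the other hepatocyte libraries. So did Prkcsh, at 89.6% against 73.6% to 86.9%. Library 118 also held fewer reads from transcripts over 5 kb, such as those of Bicc1 and Pkhd1. The parts of duct cells and of transcript length in these levels were not tested.

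Pathway genes around the 8 were counted from lists. Of 11 endoplasmic reticulum genes linked to cystic disease or the same machinery, 3 were higher and 3 lower in hepatocyte-derived cells than in hepatocytes. In cholangiocyte-derived cells 4 were higher and 3 lower, and the medians were -0.04 and 0.00. Of all tested genes 66.2% and 67.1% were higher and 14.8% and 17.4% lower. After rescaling by median ratios 0 of the 11 were higher and 10 and 9 lower. Of all tested genes 37.9% and 41.1% were then higher and 36.0% and 37.5% lower. Hspa5, the main chaperone of the reticulum, was lower by -0.83 and -0.64 in log2, its cochaperone Dnajb11, a cause of atypical polycystic kidney disease, by -0.68 and -0.41, and the channel subunit Sec61b by -0.60 and -0.69. Quantile normalization ended the calls of Hspa5 (-0.04 and 0.09). The mannosyltransferase Alg9 was higher by 0.51 and 0.66, and lower by -0.23 and -0.11 after rescaling by median ratios, the latter not called. Without hepatocyte library 118 the genes higher in cholangiocyte-derived cells numbered 2.

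Nephronophthisis genes were mostly higher. Of 20 tested nephronophthisis genes, 19 were higher and 0 lower than in hepatocytes in each ductal group, where 66.2% and 67.1% of all tested genes were higher, with medians of 1.59 and 1.76. The counts at an unadjusted p under 0.05 in limma were the same. After rescaling by median ratios 17 and 16 were higher and 1 lower, beside 37.9% and 41.1% of all tested genes higher. After quantile normalization 14 and 15 were higher and 3 and 4 lower, beside 36.4% and 38.7% higher. Dcdc2a, a ciliary microtubule protein whose loss gives sclerosing cholangitis, was higher by 5.18 and 5.60, the kinase Nek8 by 2.34 and 1.96, the magnesium transporter Slc41a1 by 2.29 and 2.47, and the ciliary protein Iqcb1 by 1.62 and 1.52. Of 9 other cystic disease genes, 8 and 9 were higher and 0 lower, beside the same 66.2% and 67.1% of all tested genes higher, with medians of 1.35 and 1.39. After rescaling by median ratios 5 and 7 were higher and 0 lower, and after quantile normalization 6 and 6 were higher and 1 lower in each. Without hepatocyte library 118 the genes higher numbered 8 and 8. The genes higher included the kinesin Kif12 (5.01 and 6.38), Dzip1l of the ciliary transition zone (4.32 and 4.76) and Cys1, which encodes cystin (2.96 and 2.88).

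Partners of Bicc1 were all called higher than in hepatocytes, 6 of 6 in each ductal group, with medians of 1.08 and 1.36, beside 66.2% and 67.1% of all tested genes. After rescaling by median ratios or quantile normalization 3 of 6 were higher in each, beside 36.4% to 41.1% of all tested genes. They included the ankyrin repeat proteins Anks3 (1.87 and 1.92) and Anks6 (1.48 and 2.29), which bind Bicc1, and the adenylyl cyclase Adcy6 (1.54 and 2.39). Dand5, a Bicc1 target in the embryonic node, was higher by 0.65 and 0.76 and lower by -0.41 and -0.55 after quantile normalization. The Hedgehog signal transducer Smo (4.03 and 3.98), the Hedgehog receptor Ptch1 (1.20 and 1.14), which inhibits it, and the Gli repressor Sufu (2.03 and 2.03) were higher in each ductal group, with Ptch1 not called after rescaling by median ratios or quantile normalization, and 6 other Gli, Glis and Zic genes failed the filter. Of 6 relatives of the polycystins and fibrocystin found in the table, 4 failed the filter. Pkd2l2 was higher by 1.45 and 1.26, the latter not called after quantile normalization (0.14), and Pkd1l3 by 0.53 and 0.51 but lower by -0.50 and -0.83 after quantile normalization.

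Cyclic AMP drives fluid secretion into cysts, and of 18 tested genes of its pathway 13 were higher and 1 lower in hepatocyte-derived cells than in hepatocytes, and 14 and 1 in cholangiocyte-derived cells, with medians of 0.94 and 1.01. These shares are near the 66.2% and 67.1% of all tested genes called higher. Without hepatocyte library 118 the genes lower numbered 2 in each. After rescaling by median ratios 10 were higher and 3 lower, and 9 and 4, and after quantile normalization 9 and 6, and 9 and 4. The regulatory subunit Prkar1a was higher by 1.03 in both, and the catalytic subunit Prkacb by 0.91 and 0.75, or -0.04 in cholangiocyte-derived cells after rescaling, which was not called. Cftr (3.39 and 5.46) and the secretin receptor Sctr (3.65 and 5.14) were higher in each ductal group.

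**Figure D5:**
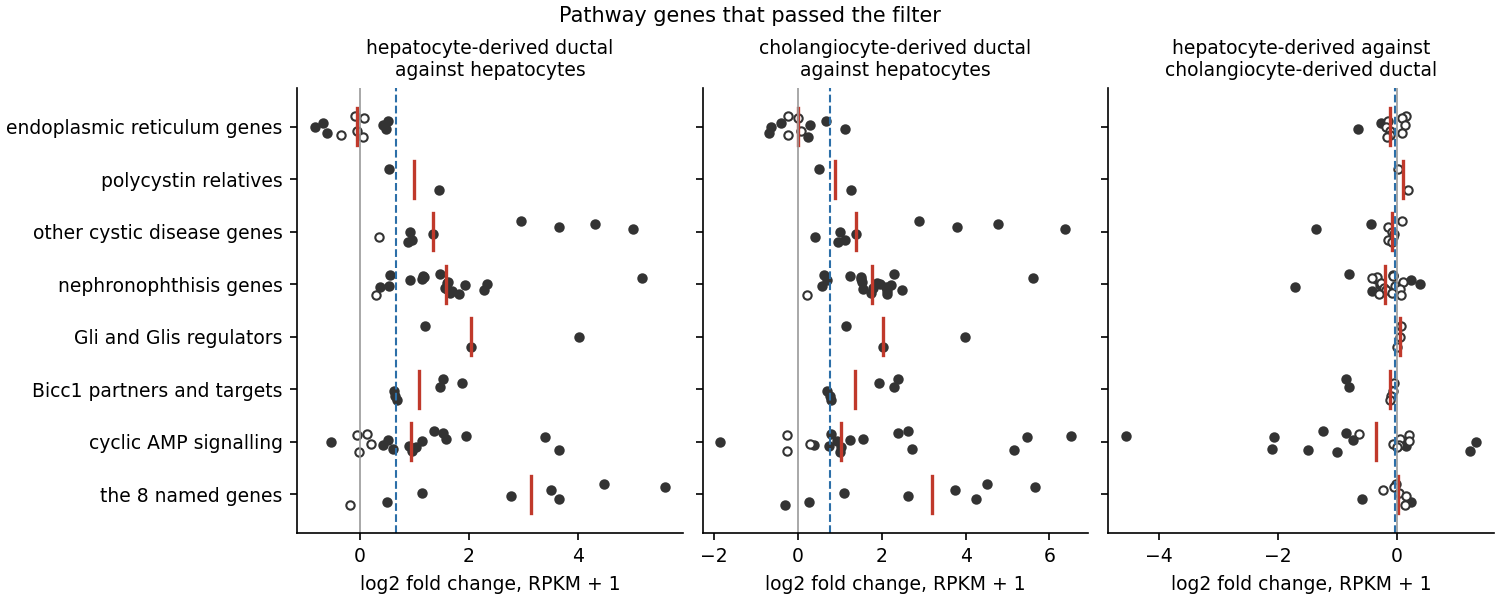
Log2 fold changes (RPKM + 1) of the tested genes of 7 lists and of the 8 genes in the 3 comparisons, filled where the adjusted p was under 0.05, with a red bar at each list's median and a dashed line at the median of all tested genes. Nephronophthisis genes lie mostly right of 0 against hepatocytes (19 of 20 called higher, 17 and 16 after rescaling by median ratios), while the endoplasmic reticulum genes lie around 0 as deposited and mostly below it after rescaling.

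Between the ductal groups 15.1% of all tested genes were higher and 21% lower. Of the cyclic AMP genes, 3 were higher and 8 lower in hepatocyte-derived than in cholangiocyte-derived cells (median -0.35). Cftr was lower by -2.06, Sctr by -1.49 and Adcy6 by -0.86, while Prkacb was higher by 0.16, a call lost with the library number as a block without libraries 220, and Prkar1a was equal to 2 decimals. Of the 20 nephronophthisis genes, 2 were higher and 5 lower, near that background, with Anks6 lower by -0.81 and Nek8 higher by 0.38. At an unadjusted p under 0.05, 10 were lower. With the block 1 was higher and 7 lower, and without hepatocyte library 118, which is in neither group and enters only through the shared spread, 10 were lower. Without the 3 libraries richest in transcripts of other cells 1 was higher and 9 lower. Of the other cystic disease genes Kif12 (-1.37) and Dzip1l (-0.44) were lower and the other 7 were not called. Of the endoplasmic reticulum genes 2 were lower and 0 higher, among them Dnajb11 (-0.27), whose call was lost with the block (adjusted p = 0.100) and after rescaling by median ratios (adjusted p = 0.0562). Without hepatocyte library 118 1 was higher. None of the Gli regulators or polycystin relatives was called or had an unadjusted p under 0.05 in limma, but Pkd1l3 was higher by 0.33 after quantile normalization.

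Across the 14 libraries the genes whose log2(RPKM + 1) followed each member most closely were Ror1, Dhx30 and Dync2h1 for Pkhd1 (Pearson r of 0.998, 0.998 and 0.997), Dos, Agrn and Csnk1d for Bicc1 (0.998, 0.997 and 0.997), Rin3, Tjap1 and Rbm15b for Pkd2 (0.998, 0.997 and 0.997), Arhgef10, Cdk9 and Ehd2 for Glis2 (all 0.997) and Ubap2l, C2cd3 and Neo1 for Glis3 (all 0.996). Such values come cheaply here, since the 14 libraries form 3 groups and share the step between hepatocytes and ductal cells. For these 5 members 515 to 843 tested genes had r above 0.98, against 19 for Pkd1, led by Brwd1, Fam160a2 and Sbf1 (0.994, 0.992 and 0.991). Prkcsh and Sec63 had 0 such genes. Prkcsh was followed most closely by Dpysl2, Gtf2h2 and Jak1 (0.964, 0.962 and 0.962), and Sec63 by the insulin-degrading enzyme gene Ide, Rnf14 and the proteasome activator gene Psme4 (0.961, 0.944 and 0.934). Among the 8 themselves Bicc1 and Glis2 had r = 0.994, Prkcsh and Pkhd1 0.676, and Sec63 a negative r with each of the other 7, from -0.708 with Pkhd1 to -0.283 with Prkcsh. These are descriptions over libraries, with no test.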

How the data were processed

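Messenger RNA was measured in 14 libraries of sorted liver cells. The authors deposited a table of RPKM values, rounded to 2 decimals, with 26005 transcript rows. Reads were aligned to mm9 with Bowtie 0.12.7 and CASAVA, per the submitters' processing notes, and the counting program is not given in the sources used here. RNA came from 75 to 200 ng of total RNA per sample prepared with an unstranded polyA kit (Illumina TruSeq RNA version 2, per the labels' protocols). Of the columns, 12 carry a sample's title, and 2 numbered 220 could be tied only to a group. The series text names 3 hepatocyte samples, but all 4 hepatocyte columns were kept.

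A symbol was represented by its row with the highest mean. Starts in the table count from 0 (934 of 1108 olfactory receptor rows had a span that is a multiple of 3) and are given counted from 1. RPKM keeps no totals, so depth was estimated from the step of 1 read among 1218 rows without introns, of which 17 to 58 had low values that were used in each library. The depth chosen was that which brought these values nearest to whole reads. At that depth 82.4% to 100% of them were whole to within 0.15 reads, which is therefore not an independent check. No pair of libraries shared more than 0.435% identical values.

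The 12638 symbols that reached 1 RPKM in 4 or more libraries entered limma 3.58.1 (R 4.3.3) on the log2(RPKM + 1) scale, in a single fit of the 3 groups with a mean-variance trend, two-sided, with Benjamini-Hochberg adjustment over all of them. A fold change on this scale understates that of low genes. Ratios within a library used a pseudocount of 0.1 and exact two-sided permutation tests of mean differences adjusted over 9 tests. Python 3.11.15, numpy 2.4.6, pandas 2.3.3 and matplotlib 3.10.9 were used. The steps were tested on simulated data.

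Same-numbered libraries had a positive r of deviations between the ductal groups (0.80, 0.21 and 0.42 for numbers 219, 225 and 611). The same held between cholangiocyte-derived cells and hepatocytes (0.51, 0.13 and 0.22 for 118, 225 and 611). Libraries of different groups and different numbers gave r from -0.56 to 0.46, so that the smaller of these values do not set pairs apart. The numbers were taken as pairs there in the block fits, and the main fit and the permutation tests used no block. Between hepatocyte-derived cells and hepatocytes numbers 225, 248 and 611 gave 0.13, 0.02 and 0.19, which do not set pairs apart. The block fits of all 3 groups hold the number as a block in this comparison too. The planned fit with the number as a block leaves out the 2 columns numbered 220, a number in no title. Between the ductal groups these columns gave r = 0.43, and fits that take them as a pair, or leave them out with no block, were added after seeing the data.

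The members, lists, markers and motifs were chosen with earlier results of these data known, and support nothing by their choice. Named are the 8 members, up to 4 genes per list with the smallest adjusted p in hepatocyte-derived cells against hepatocytes, Ganab and Sec62, and the 3 genes nearest to each member. Alternatives covered scaling, pseudocount, filter, rows of a symbol, weights, the block and libraries left out. Counts of list genes under these alternatives, and transcript lengths without hepatocyte library 118, were added after seeing the data. Protein sequences were not used here. The values of 1 gene of the lists are not reported here.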

Additional observations from a re-analysis of the deposited data

Results flagged for a closer look

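Of 33 groups of member levels and ratios, 1 held a library far from the others. Pkhd1 in cholangiocyte-derived library 611 read 102.79 RPKM, where the other 4 libraries of its group read 61.53 to 72.05, and its gap to the next was 0.745 of the group's range. Chance flags about 1 in 20 groups. The same library was not the highest of its group for Pkd1, Pkd2, Glis2, Prkcsh or Sec63, and was the highest for Bicc1 (289.66) and Glis3 (55.22).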

How the results depend on the processing

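The calls of Pkhd1, Pkd2, Bicc1, Glis2 and Glis3 against hepatocytes, and of Pkhd1 between the ductal groups, kept direction and side of the threshold under every alternative run. Rescaling by median ratios or quantile normalization changed all-gene calls most: against hepatocytes 4790 or 4596 genes were higher and 4549 or 4136 lower in hepatocyte-derived cells, and 5197 or 4891 higher and 4734 or 4769 lower in cholangiocyte-derived cells. Between the ductal groups quantile normalization gave 3069 higher and library weights 2987. Rescaling turned Prkcsh against hepatocytes (-0.29 and -0.57) and gave 2 members lower in each of these comparisons. Members lower in hepatocyte-derived cells against hepatocytes numbered 1 (Sec63) with quantile normalization, library weights and without the 3 libraries richest in other transcripts, and 0 to 1 when leaving out each library. Members higher between the ductal groups numbered 2 with weights (Prkcsh and Sec63), and 0 with the replicate block, without both libraries numbered 220 and without those 3 libraries. Uncalled differences between the ductal groups changed sign: Bicc1 to 0.021 after rescaling and 0.029 without the 3 libraries, Glis2 to 0.017 without them, and with the planned block over all groups Pkd1 to -0.13 and Pkd2 to -0.0087. With 220 as a pair in the block Pkd1 was -0.14 and Glis2 0.019, over the ductal pairs alone Bicc1 was 0.026, Glis2 0.029 and Pkd1 -0.012, and without both libraries 220 Bicc1 was 0.015. Leaving out single libraries they ranged from -0.072 to 0.031 for Bicc1, -0.12 to 0.030 for Glis2 and -0.040 to 0.087 for Pkd1.

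The ratio differences with pairs (replicate block) were -1.69 (Pkd1 to Pkd2) against hepatocytes in hepatocyte-derived cells, -1.44 (Pkd1 to Pkd2) and -0.55 (Sec63 to Sec62) in cholangiocyte-derived cells, and 0.10 (Prkcsh to Ganab) and 0.29 (Sec63 to Sec62) between the ductal groups. None could pass with 3 pairs, nor with 220 as the fourth, which gave 0.114 (Prkcsh to Ganab) and 0.242 (Sec63 to Sec62) between the ductal groups. Leaving out each library, Pkd1 to Pkd2 ranged from -1.70 to -1.49 and from -1.59 to -1.38 against hepatocytes, Prkcsh to Ganab from -0.038 to 0.26 and from -0.14 to 0.16, Sec63 to Sec62 from -0.31 to -0.19 and from -0.60 to -0.53, and between the ductal groups from 0.083 to 0.12 (Prkcsh to Ganab) and from 0.25 to 0.37 (Sec63 to Sec62). Many of these lost the call because fewer libraries were tested, since an exact test of 4 against 4 cannot go below p = 0.0286. Beside Prkcsh between the ductal groups the planned block changed no member's call, and with 220 as a pair Sec63 was called lower in hepatocyte-derived cells than in hepatocytes, which makes 1 member lower. In hepatocyte-derived cells against hepatocytes, where same-numbered libraries were hardly alike, the planned block gave 8278 genes higher and 1896 lower. The 2 decimals of the table limit hepatocyte levels near that of Glis2, and the number of libraries limits small differences.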

Other observations

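The step between hepatocytes and hepatocyte-derived ductal cells grew with transcript length. The median log2 fold change was 0.36 for transcripts under 2 kb, 0.73 for those of 2 to 5 kb and 0.97 for those over 5 kb, and 0.49, 0.73 and 0.85 without hepatocyte library 118. Between the ductal groups the medians were -0.0073, -0.035 and -0.051. Pkhd1 and Pkd1 have transcripts of 12935 and 14164 nt, with fold changes of 3.65 and 1.14, and Sec63, at 6032 nt, had -0.18. The part of transcript length in these values was not tested.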
